A study of Mus musculus with 2 samples.

Results

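The 34 enzymes described here carry glucose through glycolysis to pyruvate and lactate, or through the pentose phosphate pathway. They were chosen by name from the 22756 gene rows of the deposited tables. All 34 had a row, 31 had a read in at least 1 library, and 29 had the 30 or more counts, summed over both libraries, needed to count as measured here. The data are counts of ribosome-protected mRNA fragments (footprints) from the ileum, the last stretch of small intestine, in C57BL/6 mice, wild type by genotype and at postnatal day 21. Mice of the first group were fed and those of the other had gone 48 h without food, with n = 1 library each. How many animals stand behind a library was not stated in the sources used here. Gene counts totalled 5558620 (fed) and 5434252 (fasted). Each difference below is therefore between these 2 libraries, has no replicate check and carries no p-value, and its interval covers counting error only. Footprint counts follow both the amount of an mRNA and how heavily it is translated, and no mRNA library was analysed here to separate them.

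Glycolysis phosphorylates glucose, splits it into trioses and ends in pyruvate, with hexokinase, phosphofructokinase 1 and pyruvate kinase as the steps that run essentially one way and are most regulated. The pentose phosphate pathway branches off at glucose 6-phosphate: its oxidative arm makes NADPH, and its non-oxidative arm trades sugars between ribose for nucleotides and glycolytic intermediates. Small intestinal enterocytes take up large amounts of glucose and fructose, and the dividing cells of the crypts need ribose for DNA and RNA. Several of these enzymes are among the genes with most processed pseudogenes, copies of an mRNA written back into the genome, which bears on how footprints can be assigned to them.

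Gapdh, Pgk1 and Pgam1, which catalyse 3 consecutive steps of the lower, energy-yielding stretch of the pathway, were given as NA in both libraries. Reads that aligned to more than 1 place were not assigned to genes, at 41.4% of counted reads (fed) and 39.9% (fasted). The coding sequence of each enzyme was therefore cut into all windows of 28 bases, about the size of a footprint, and each window was looked up in all transcripts of other genes in GENCODE vM21. Pgk1 (chromosome X, 106187100 to 106203699, plus strand, mm10) and Pgam1 (chromosome 19, 41911923 to 41918660, plus strand) had no window of their own. Gapdh (chromosome 6, 125161715 to 125166467, minus strand) shared windows with 398 other genes, 383 of them pseudogenes, within 1 mismatch. In Gapdh 5.71% of windows were unique, all within the first 60 window positions of the longest annotated coding form. An NA for these 3 enzymes is thus no measure of how much of them was made. The windows at the middle codon of each coding sequence are shown because they are what an aligner sees. That of Gapdh was identical in 74 other annotated genes, and those of Pgk1 and Pgam1 in 2 each.
Gapdh, coding bases 538 to 565: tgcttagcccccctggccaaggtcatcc
Pgk1, coding bases 625 to 652: ctggctatcttgggaggcgctaaagttg
Pgam1, coding bases 382 to 409: cctgatcaccccttctacagcaacatca

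Further enzymes whose values matter below, the enolase Eno1 and the pyruvate kinase Pkm, kept only a small assignable part. Of the windows of Eno1 9.49% occurred in no other gene, and 0.157% were free of another gene when 1 mismatch was allowed. For Pkm these shares were 20.2% and 2.17%. The first window of each with no identical copy is shown with the bases that differ from another gene in capitals. The Eno1 window lies 1 base from Eno1b, Gm4735 and Gm5855, and the Pkm window 1 base from each of Gm5216 and Gm6560.
Eno1, coding bases 699 to 726: ggccggctacactgaccaggttgtcatT
Pkm, coding bases 1 to 28: atgcCgaagccacacagtgaagcAggga
Over the 34 enzymes, 8 (23.5%) had under 50% of their windows to themselves, against 6.82% of the 16682 coding genes looked up. They were Gapdh, Pgk1, Pgam1, Eno1, Pkm, Ldha, Ldhb and Gpi1, the last with 46.4%. By contrast 16 enzymes had no window identical in another gene, among them H6pd, Pgd, Rpia, Pgls, Pfkfb3, Hk1 and Hk2. The map of coding windows sets these patterns side by side.

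**Figure D1:**
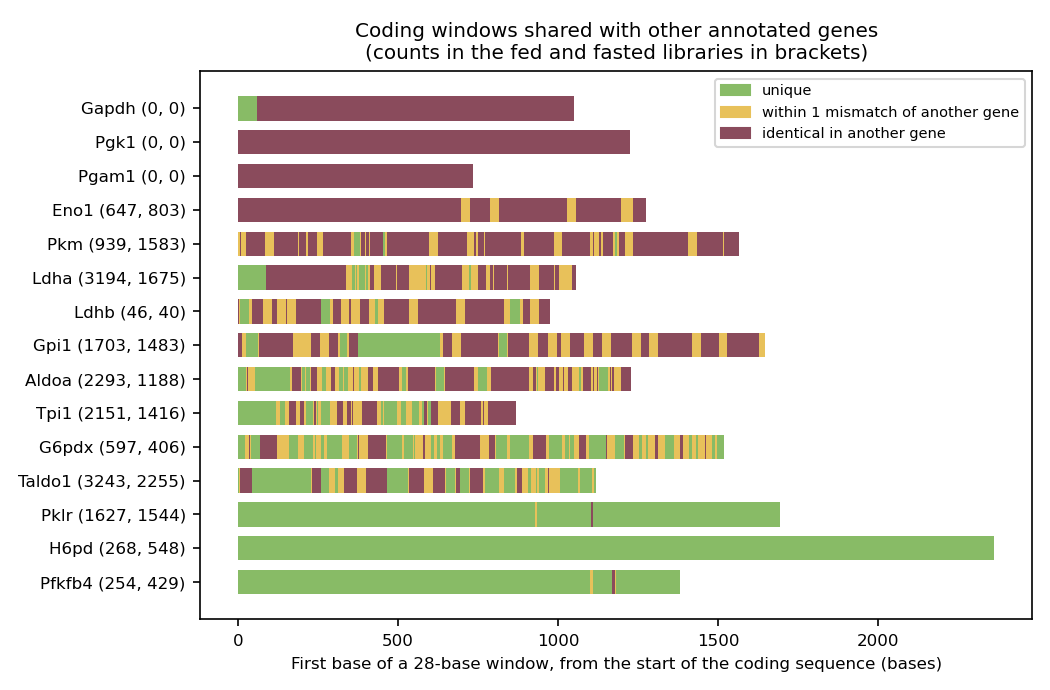
Each bar is the coding sequence of an enzyme, drawn by the first base of each 28-base window from the start of the coding sequence, with the fed and fasted counts in brackets. Green windows were unique, yellow windows lay within 1 mismatch of another annotated gene and dark red windows were identical in another gene. Pgk1 and Pgam1 are dark red throughout and are drawn with 0 counts for their NA, whereas H6pd is green throughout.

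Fasting went with no common direction among the 29 measured enzymes. In the fasted library 6 were higher, 7 were lower and 16 were neither, where a call needed a ratio of at least 1.5-fold and a 95% interval excluding 1. The higher ones were H6pd, Pfkfb4, Pkm, Pfkfb2, Pfkfb3 and Eno1, and the lower ones Eno3, Rpia, Hk3, Pgls, Pfkl, Hk2 and Aldoa. These are 20.7% and 24.1% of the measured enzymes. Among all 11333 measured genes 17.3% were called higher and 17.3% lower, so neither share stood far from the background. The median log2 ratio was -0.20, beside 0.0028 over all measured genes. Levels here are CPM (counts scaled to a common library size) after TMM scaling, which sets the typical gene near a ratio of 1. Plain CPM values, which divide by the gene total alone, move every log2 ratio by -0.32. On that scale 4 enzymes were higher and 12 lower (13.8% and 41.4%), against 8.86% and 31.2% of all genes. The calls for Pfkfb3 and Eno1 were lost, and Hk1, Pfkp, Ldha, Pgd and Rpe were lower as well. Summed, the 34 enzymes took 0.580% of fed gene counts (95% exact Clopper-Pearson interval 0.574% to 0.586%) and 0.425% of fasted gene counts (0.420% to 0.431%). These shares are on the plain scale, where the summed fasted/fed ratio was 0.733. After TMM scaling the summed ratio was 0.917, so the size of the drop depended on the scaling.

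**Figure D2:**
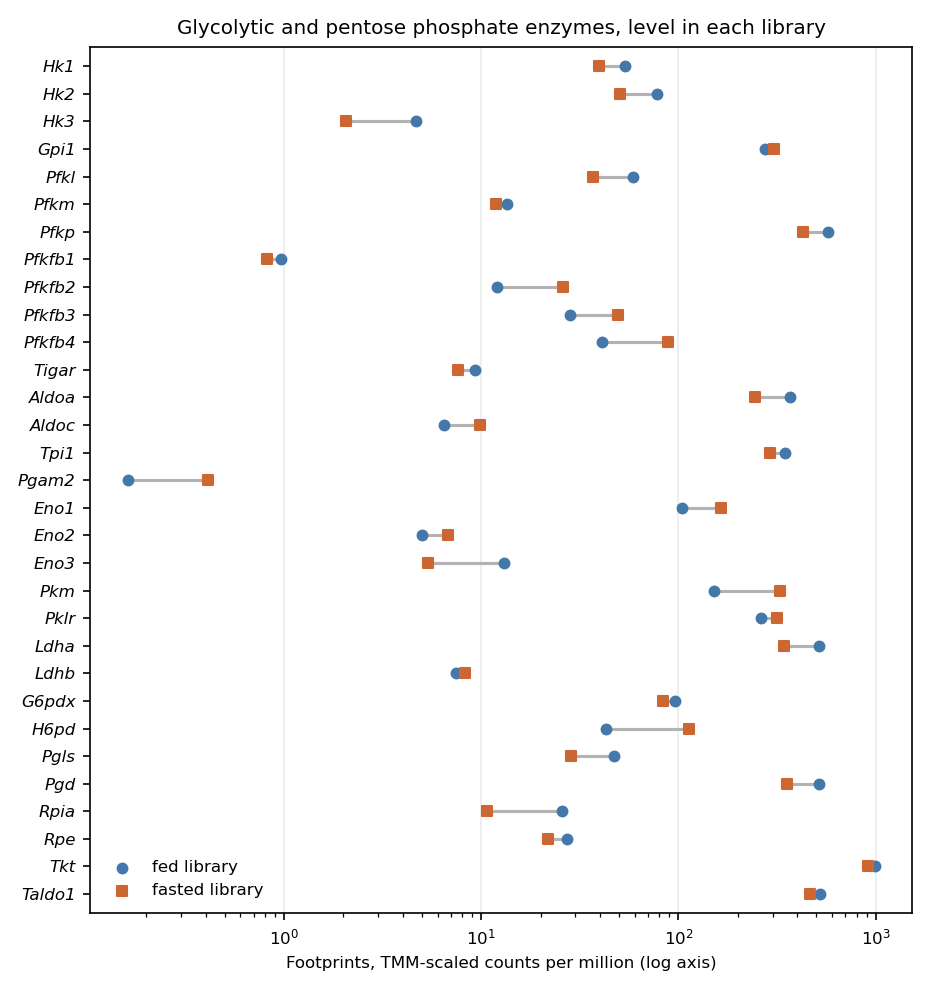
TMM-scaled footprint CPM (log axis) of the 31 enzymes with a read, in pathway order, with fed as blue circles and fasted as orange squares. Tkt is highest in both libraries, at 988 and 916, and the fasted points of H6pd, Pkm, Pfkfb2, Pfkfb3 and Pfkfb4 lie to the right of their fed points. Pgam2 and Pfkfb1 rest on at most 6 counts per library.

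Hexokinases, which trap glucose as its phosphate, were lower or below 1 in the fasted library. Hk2 (chromosome 6), the insulin-responsive form, had 486 counts fed and 245 fasted, a fasted/fed ratio of 0.645 (95% interval 0.551 to 0.754). Hk1 (chromosome 10), the broadly expressed form, had 331 and 192 counts, a ratio of 0.742 (0.618 to 0.889) that did not reach 1.5-fold. Hk3, found mostly in blood leukocytes, had only 29 and 10 counts, with a ratio of 0.441 (0.192 to 0.931). Hk2 and Hk1 thus stood in nearly the same proportion in both libraries: the Hk2 to Hk1 ratio in the fasted library was 0.869 times that in the fed library, with an interval (0.683 to 1.11) that includes 1. Such ratios of genes within a library do not depend on the scaling. Per kilobase of coding sequence the summed hexokinase level was 48.9 CPM fed and 33.0 fasted. Markers of myeloid cells, 7 of 7 detected in each library, summed to 485 and 361 CPM. Of the 6 measured, 2 were lower (Itgam and Ptprc) and 4 were neither, with Csf1r (1.047) and Cd68 (1.18) above 1. Their part in the Hk3 result was not tested. In bulk tissue, fewer cells of a type and less RNA per cell cannot be told apart. The hexokinase-domain gene Hkdc1, named after its value was seen, outweighed all 3 in the ileum, at 157 CPM per kilobase fed and 207 fasted. Its ratio of 1.32 (1.25 to 1.39) did not reach 1.5-fold and was 1.06 with plain CPM.

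Gpi1, the isomerase between glucose 6-phosphate and fructose 6-phosphate, had 1703 fed and 1483 fasted counts. Its ratio of 1.11 (1.04 to 1.195) fell to 0.891 with plain CPM, so its side of 1 depended on the scaling. Phosphofructokinase 1, the committed step of glycolysis, was made mostly from Pfkp (chromosome 13), the platelet form, which carried 88.8% of the per-length level of the 3 genes (fed) and 89.7% (fasted). Pfkp had 3563 and 2074 counts, a ratio of 0.745 (0.705 to 0.786). Pfkl, the liver form, had 364 and 179 counts and was lower, at 0.629 (0.523 to 0.754). The muscle form Pfkm had 84 and 58 counts and a ratio of 0.883 (0.621 to 1.25). All 3 forms lay below 1, Pfkl alone past 1.5-fold, and the interval of Pfkm included 1.

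Among the enzymes that set fructose 2,6-bisphosphate, the strongest activator of phosphofructokinase 1, measured members of the PFKFB family went the other way. The bifunctional PFKFB enzymes make and break this signal, and 3 of the 3 measured were higher, 2 of them also with plain CPM. Among all measured genes 17.3% were called higher, or 8.86% with plain CPM. Pfkfb4 (chromosome 9, 108991778 to 109032228) had 254 fed and 429 fasted counts, a ratio of 2.16 (1.85 to 2.53). Pfkfb2 (chromosome 1, 130689182 to 130729253), whose heart form is a target of insulin signalling, had 75 and 126 counts and a ratio of 2.15 (1.60 to 2.90). Pfkfb3 (chromosome 2, 11471433 to 11554077), the form with the highest kinase activity, had 175 and 240 counts and a ratio of 1.75 (1.44 to 2.14), or 1.40 with plain CPM. Their proportions were similar in both libraries within counting error: the Pfkfb4 to Pfkfb3 ratio changed 1.23-fold (0.952 to 1.59) between the libraries and the Pfkfb3 to Pfkfb2 ratio 0.816-fold (0.568 to 1.17), both intervals including 1. Pfkfb1, the liver form, had 6 and 4 counts and was not measured. Tigar, a phosphatase that lowers fructose 2,6-bisphosphate, had 58 and 37 counts, a ratio of 0.816 (0.525 to 1.25), and the Pfkfb4 to Tigar ratio was 2.65 times higher in the fasted library (1.67 to 4.23). Summed per coding length the PFKFB level went from 53.9 to 109 CPM per kilobase. Pfkfb2 shares 1163 coding bases on its own strand with the annotated gene Gm29427, so its count depends on how reads of both were assigned, which is not given. The same holds for Pfkm, with 148 coding bases shared with Gm26513. On the opposite strand Gpi1 shares 333 coding bases with Gm26762, and G6pdx shares 120 with Ikbkg. Whether these overlaps touched the counts depends on the strand setting, which is not given.

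The promoters of Pfkfb2 and Pfkfb3, both higher in the fasted library, are shown with that of Ldha, which had a ratio below 1, because each has an annotated start with the E-box letters CACGTG in front. Pfkm, with a ratio of 0.883, also holds them and is not printed. The table has 3 windows for Pfkfb2 and 2 each for Pfkfb3 and Ldha, of which 1 each is shown. Sequences are RefSeq promoters of GRCm38.p6, from 250 bases before to 50 after an annotated start, 5′ to 3′ on the strand of the gene, with CACGTG in capitals.
Pfkfb2, chr1:130715772-130716071, minus strand: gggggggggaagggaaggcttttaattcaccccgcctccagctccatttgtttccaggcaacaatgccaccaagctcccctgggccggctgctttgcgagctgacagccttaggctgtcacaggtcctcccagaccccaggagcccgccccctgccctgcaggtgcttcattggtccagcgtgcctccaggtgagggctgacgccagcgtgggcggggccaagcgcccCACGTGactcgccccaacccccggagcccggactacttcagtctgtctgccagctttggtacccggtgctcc
Pfkfb3, chr2:11502041-11502340, minus strand: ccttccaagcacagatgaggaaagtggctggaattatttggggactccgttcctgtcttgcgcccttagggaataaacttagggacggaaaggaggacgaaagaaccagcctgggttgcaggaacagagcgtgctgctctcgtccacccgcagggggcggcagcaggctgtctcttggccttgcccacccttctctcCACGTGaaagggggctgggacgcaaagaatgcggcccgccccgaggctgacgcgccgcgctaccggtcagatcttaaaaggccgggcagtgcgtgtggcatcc
Ldha, chr7:46845554-46845853, plus strand: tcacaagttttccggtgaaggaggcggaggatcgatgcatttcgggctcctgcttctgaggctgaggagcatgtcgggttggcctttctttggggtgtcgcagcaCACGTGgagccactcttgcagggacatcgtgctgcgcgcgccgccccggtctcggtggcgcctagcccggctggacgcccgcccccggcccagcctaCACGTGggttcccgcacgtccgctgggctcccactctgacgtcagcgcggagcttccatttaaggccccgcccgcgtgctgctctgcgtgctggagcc
The window of Ldha holds 2 copies and the others 1 each. All 34 enzymes had a promoter in the table, with 53 windows in all. CACGTG, a palindrome read by E-box factors, was in 4 of the 53 windows (7.55%) and in 7.15% of all 32851. Its inner letters ACGTG, the core bound by hypoxia-inducible factor, counted on both strands and also present in every CACGTG, were in 18 of 53 (33.96%) and in 19.6% of all. TGTTCT, the right-hand letters of glucocorticoid receptor sites, were in 11 of 53 (20.8%) and 19.0% of all, again on both strands. These are matches of letters, and these E-box letters stood in front of genes with ratios above and below 1.

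**Figure D3:**
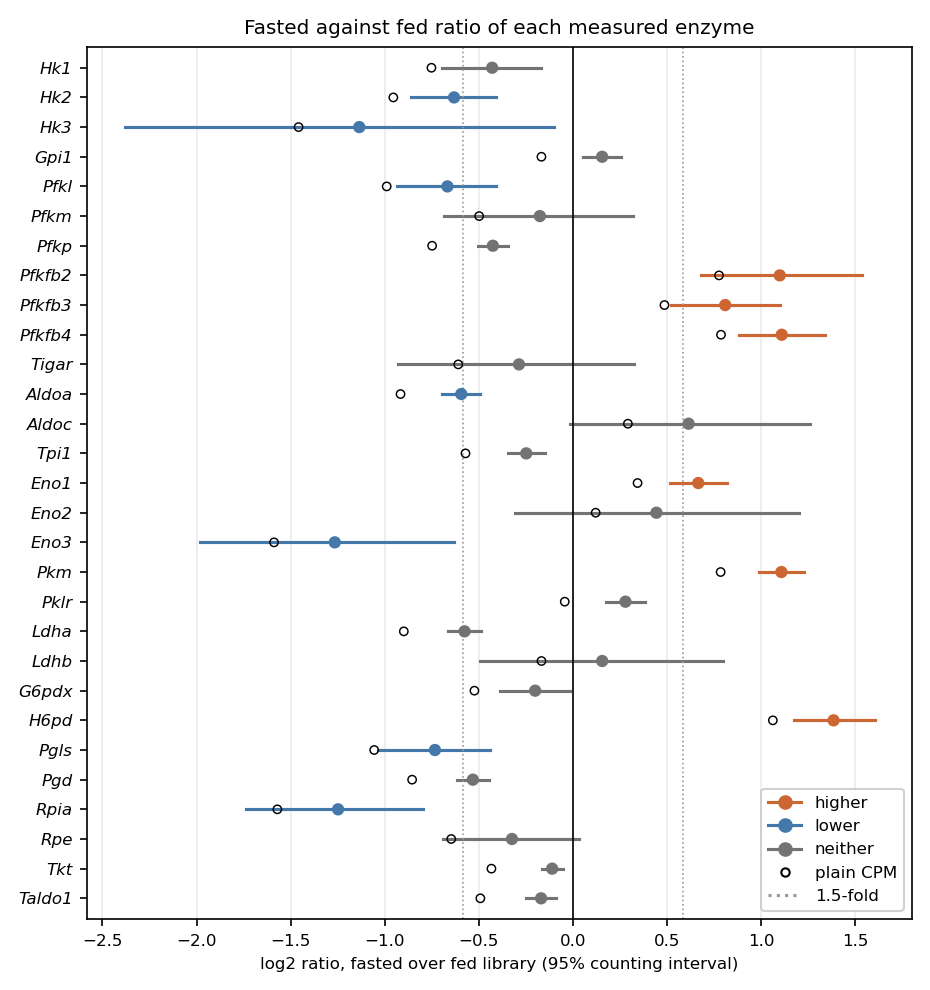
Fasted over fed log2 ratio of the 29 measured enzymes with 95% counting intervals, in pathway order. Orange marks enzymes called higher, blue those called lower and grey the rest, open circles give the plain CPM value, and dotted lines mark 1.5-fold. Pfkfb2, Pfkfb3, Pfkfb4, Pkm and H6pd stand out to the right, and Eno3, Rpia and Hk3 to the left.

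Aldolase splits the phosphorylated hexose into trioses. Aldoa (chromosome 7), the muscle-type and general form, had 2293 fed and 1188 fasted counts, a ratio of 0.663 (0.617 to 0.711), just past 1.5-fold. The brain form Aldoc had 40 and 48 counts and a ratio of 1.53 (0.988 to 2.40) whose interval reached 1. The Aldoc to Aldoa ratio was 2.32 times higher in the fasted library (1.48 to 3.64). Tpi1, which interconverts the trioses, had 2151 and 1416 counts and a ratio of 0.842 (0.787 to 0.901), within 1.5-fold.

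Of the lower pathway only enolase could be followed between the trioses and pyruvate kinase. Eno1 (chromosome 4), the general enolase, had 647 fed and 803 fasted counts, a ratio of 1.59 (1.43 to 1.76), or 1.27 with plain CPM, and this value rests on the 9.49% of its windows set out above. The muscle enolase Eno3 (chromosome 11) had 81 and 26 counts and was lower, at 0.411 (0.253 to 0.646). The neuronal enolase Eno2 had 31 and 33 counts and a ratio of 1.36 (0.809 to 2.30). The Eno1 to Eno3 ratio was 3.87 times higher in the fasted library (2.42 to 6.34). Muscle-type genes did not share 1 direction. Creatine kinase Ckm had 102 and 18 counts (0.226, 0.129 to 0.375) and the glycogen phosphorylase Pygm 102 and 26 (0.326, 0.203 to 0.506), both lower, whereas skeletal actin Acta1 had 104 and 222 (2.73, 2.15 to 3.48) and Myot 0 and 109, both higher. Of 8 smooth muscle markers, all detected, 6 were lower and their sum went from 5510 to 3102 CPM. Skeletal muscle markers, 8 of 11 detected fed and 5 fasted, summed to 34.9 and 73.5 CPM, with Mb and Myh1 at 0 in both and Atp2a1, Myh2, Tnni2 and Tnnt3 at 0 in the fasted one. Neuron and glia markers, 11 of 11 detected fed and 10 fasted with Gfap at 0 in the latter, summed to 52.9 and 89.3 CPM beside Eno2 and Aldoc. The part of these cells in the enolase and aldolase values was not tested. The muscle mutase Pgam2 had 1 and 2 counts, under the 3 that a count of 0 allows, so no ratio is given.

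Pyruvate kinase makes ATP and pyruvate from phosphoenolpyruvate, and here the 2 genes separated. Pkm (chromosome 9, 59656368 to 59679375), whose splice forms M1 and M2 cannot be told apart in these counts and which shares 334 coding bases on its strand with the annotated gene Gm49759, had 939 fed and 1583 fasted counts, a ratio of 2.16 (1.99 to 2.34) and 1.72 with plain CPM. Pklr (chromosome 3, 89136142 to 89146784), the liver and red cell form, had 1627 and 1544 counts, a ratio of 1.21 (1.13 to 1.30) that became 0.971 with plain CPM. Free of any scaling, the Pkm to Pklr ratio was 1.78 times higher in the fasted library (1.59 to 1.98). Which gene was ahead depended on the length used. Per coding length Pkm carried 38.4% of the level when fed and 52.6% when fasted, whereas per uniquely assignable window it carried 75.5% and 84.6%. The erythroid markers, 6 of 7 detected in each library, summed to 10.9 and 23.9 CPM, with Slc4a1 at 0 in both libraries, beside 262 and 318 CPM for Pklr. Whether these markers share windows with other genes was not examined for each, and their part in the Pklr value was not tested.

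Lactate dehydrogenase was almost wholly Ldha, which carried 98.5% of the per-length level when fed and 97.5% when fasted. Ldha (chromosome 7), the form that favours lactate production, had 3194 and 1675 counts, a ratio of 0.671 (0.632 to 0.712), just short of 1.5-fold, and 0.536 with plain CPM. The heart form Ldhb had 46 and 40 counts, a ratio of 1.11 (0.710 to 1.74). The Ldha to Ldhb ratio changed 0.603-fold, with a wide interval (0.384 to 0.9497). For both genes less than 50% of windows were unique.

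**Figure D4:**
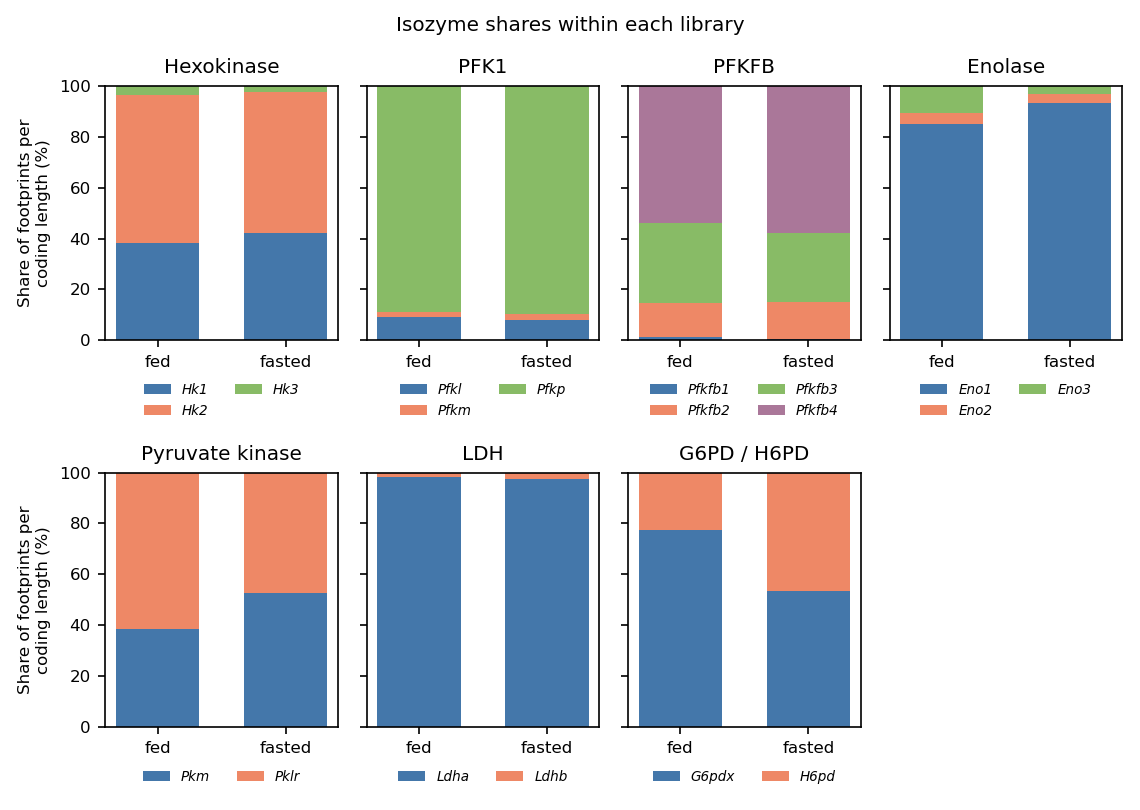
Share of each isozyme in the footprints per coding length of its enzyme, as stacked bars in percent, for the fed and the fasted library. The phosphofructokinase 1 and lactate dehydrogenase bars differ by under 2 percentage points between libraries, whereas Eno3 goes from 10.7% to 3.02% and H6pd from 22.5% to 46.6%. Per uniquely assignable window, not drawn, Eno3 held 1.17% (fed) and 0.306% (fasted), and H6pd 18.4% and 40.4%.

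In the oxidative pentose phosphate arm H6pd alone lay above 1, and of the cytosolic enzymes only Pgls was called lower. H6pd (chromosome 4, 149979475 to 150009023), which carries out the opening reactions inside the endoplasmic reticulum and supplies NADPH there to the enzyme that regenerates active glucocorticoid, had 268 fed and 548 fasted counts. Its ratio of 2.62 (2.26 to 3.04) was the highest of the measured enzymes and remained 2.09 with plain CPM, and every one of its windows was unique. The cytosolic enzymes did not share this. G6pdx (chromosome X), the entry enzyme, had 597 and 406 counts and a ratio of 0.870 (0.765 to 0.989). Pgls, the lactonase, had 294 and 138 counts and was lower, at 0.601 (0.487 to 0.738). Pgd, which makes the second NADPH, had 3192 and 1726 counts and a ratio of 0.692 (0.652 to 0.734). The H6pd to G6pdx ratio was 3.01 times higher in the fasted library (2.47 to 3.66) and the H6pd to Pgd ratio 3.78 times higher (3.22 to 4.44). Per coding length H6pd went from 22.5% to 46.6% of the summed level of both dehydrogenases.

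The non-oxidative arm held the enzyme with most assigned counts and one of the lowest ratios. Tkt (chromosome 14), transketolase, had 6145 fed and 4451 fasted counts, a ratio of 0.927 (0.891 to 0.963). Taldo1 (chromosome 7), transaldolase, had 3243 and 2255 counts and a ratio of 0.890 (0.843 to 0.939), so both stayed within 1.5-fold, and their own ratio changed 1.04-fold (0.974 to 1.11). Rpia (chromosome 6, 70765720 to 70792232), the isomerase that makes ribose 5-phosphate, was lower, with 159 and 52 counts and a ratio of 0.418 (0.300 to 0.576). The epimerase Rpe had 170 and 106 counts and a ratio of 0.798 (0.620 to 1.02). The Tkt to Rpia ratio was 2.21 times higher in the fasted library (1.61 to 3.10). Of 7 cycling markers 6 were lower, where 17.3% of all measured genes were called lower, and their sum went from 879 to 358 CPM. Ileal enterocyte markers, all 9 detected, went from 25474 to 49614 CPM in sum, with 6 higher and 3 neither. With plain CPM 4 were higher and 1 lower. Of those called neither, Fabp6 lay below 1 (0.736, 0.722 to 0.750), and Epcam (1.02) and Slc10a2 (1.24) lay above it. The part of cycling cells or enterocytes in the pentose phosphate values was not tested.

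Per length, the pathway was uneven, and the order of its steps depended on the length used. The steps of Gapdh, Pgk1 and Pgam1 could not be ranked. Per coding length, of the other steps that carry sugar through the pathways, ribose-5-phosphate isomerase (28.1 CPM per kilobase fed, 11.8 fasted) was lowest in both libraries. The regulatory phosphatase Tigar lay below it (11.6 and 9.44). Transketolase (529), lactate dehydrogenase (482) and transaldolase (455) were the highest steps in the fed library. Per uniquely assignable window the fed order was lactate dehydrogenase (1290), enolase (874), transaldolase (660), pyruvate kinase (633), triosephosphate isomerase (630) and Aldoa with Aldoc (570.0), all above transketolase (537). Steps with many copies in the genome therefore have no settled rank in these counts.

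**Figure D5:**
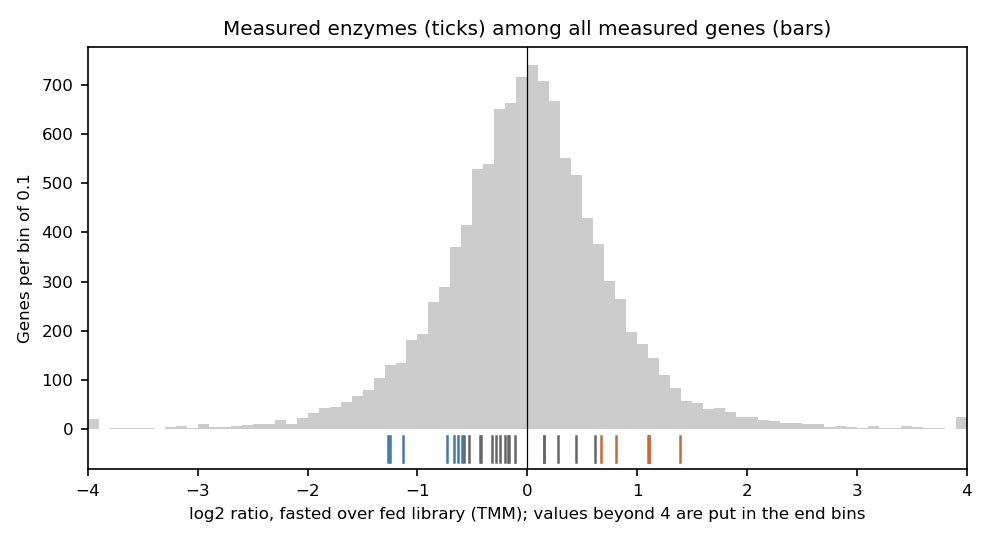
Number of measured genes per bin of 0.1 in the log2 ratio of fasted over fed footprints (grey bars, 11333 genes), with the 29 measured enzymes as ticks below, coloured orange for higher, blue for lower and grey for neither. The ticks lie within the body of the distribution, from Eno3 on the left to H6pd on the right.

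Genes next to these enzymes in metabolism included far larger ratios, up to 60.0 for Pdk4. Of 69 measured neighbours in 9 lists, chosen with earlier results of these data known, 25 were higher and 4 lower (17 and 18 with plain CPM), at a median log2 ratio of 0.23. Over all measured genes 17.3% were called higher and 17.3% lower, or 8.86% and 31.2% with plain CPM. The enzymes that oppose glycolysis had 5 of 7 higher and 0 lower, led by Pck1 (ratio 44.5), G6pc (12.3) and the glucose 6-phosphate carrier Slc37a4 (10.3). Fbp1, which undoes the phosphofructokinase step, went from 224 to 1551 counts (8.86, 7.70 to 10.2). Sugar and lactate carriers had 5 of 10 higher, with Slc2a2 (11.8), Slc2a5 (5.64) and Slc5a1 (2.90) in front, and the lactate carrier Slc16a1 had a ratio of 0.737. With plain CPM the carriers had 3 higher and 3 lower. Hexose entry genes had 7 of 14 higher and 1 lower, a balance that turned to 3 higher and 5 lower with plain CPM, among them the fructose pathway enzymes Khk (2.72) and Tkfc (3.43), with Pygm lower. In the pyruvate list Pdk4 (60.0) and Pdk2 (2.20), kinases that switch off pyruvate dehydrogenase, were the 2 of 11 called, and plain CPM added 2 lower. Among the side branches, where plain CPM gave 1 higher and 4 lower, Gpd1 was higher (2.05) and the ADP-dependent glucokinase Adpgk lower (0.482). Of other NADPH sources Idh1 was higher (2.13) and Me1 lower (0.148), the latter with 29.1% of windows unique, and of 5 measured pentose users Prps1 was higher (1.94). The regulators had 3 of 10 higher, Ppargc1a (2.70), Mlxipl (1.81) and Epas1 (1.58), and Nfe2l2, which activates pentose phosphate genes, lower (0.251, 0.222 to 0.284). Hif1a had a ratio of 0.941. Of the testis-restricted paralogs, none reached 30 counts. With plain CPM, Mlxipl and Epas1 were not called.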

How the data were processed

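Ribosome-protected fragments were sequenced from 1 fed and 1 fasted ileum library. Per the labels' protocols, lysates were nuclease-treated, passed through a sucrose cushion, depleted of rRNA and amplified by 10 PCR cycles, so reads are not independent molecules and intervals and floors cover counting error only. The authors deposited raw counts per gene symbol. Per the submitters' processing notes the tools included STAR, HTSeq, Bowtie 1.1.2 and cutadapt, on mm10, without their roles; annotation, strand setting and read length filter were not given in the sources used here. NA was read as 0. Rows of unassigned reads stayed out of library sizes: no feature 13.4% and 21.0%, several places 41.4% and 39.9%, ambiguous 0.209% and 0.196% (fed, fasted). The floor set by a count of 0 is 3 counts, or 0.483 (fed) and 0.617 (fasted) CPM.

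Counts were scaled with TMM in edgeR 4.0.16 (R 4.3.3), used for scaling only. Ratios carry 95% exact Clopper-Pearson intervals, medians of log2 ratios have 0.5 added to each count, and changes of within-library ratios carry exact conditional intervals (scipy 1.17.1). Named genes were all 34 enzymes and, per neighbouring list, up to 3 called genes in each direction with the interval bound farthest from 1; Fbp1, Hkdc1, Slc16a1, Hif1a and the markers named were chosen after their values were seen. One gene that the rule names is not reported here. Members and lists were chosen with earlier results of these data known. Coordinates (1-based, mm10) came from GENCODE vM21, in which 21943 of the symbols were found, as did the longest coding sequences and the windows. Genes overlapping the same locus were not counted as sharing a window. Windows were looked up in annotated transcripts, since no genome sequence was used here, so copies outside them were missed. The counting functions were tested on simulated data. Alternatives were plain CPM, size factors from DESeq2 1.42.0, upper quartiles, TMM leaving out ribosomal, mitochondrial and abundant genes, other minimum counts, a 2-fold threshold, 99.9% intervals, 2 added counts and other lengths.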

Additional observations from a re-analysis of the deposited data

How the results depend on the processing

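With 1 library per condition no setting tests the difference between conditions, and no replicate could be left out. No paired analysis was possible because each condition has 1 library. Against 6 higher and 7 lower enzymes, plain CPM gave 12 lower and a 2-fold threshold 3 lower. For neighbouring pathway genes (25 higher, 4 lower), plain CPM gave 18 lower, a 2-fold threshold 16 higher and a minimum of 200 counts 1 lower. Over all genes (1956 higher, 1962 lower), plain CPM gave 1004 higher and 3536 lower, a minimum of 200 counts 1187 and 892, and a 2-fold threshold 935 and 1035; fewer genes are tested or pass by construction in the latter settings. The median log2 ratio of the enzymes, -0.20, was -0.52 with plain CPM, -0.22 with upper-quartile factors, -0.18 with no minimum count and -0.22 with a minimum of 200. No called enzyme changed direction under any of the 4 other scalings or with 2 added counts; 3 uncalled ones, Gpi1, Pklr and Ldhb, changed sides of 1 with plain CPM. Of 34 summed step levels, 16 moved past counting error with uniquely assignable windows, 5 with merged coding exons and 27 with plain CPM; of 38 isozyme shares 14 and 6 moved with the first 2. Depth limits Hk3, Eno2, Eno3, Aldoc, Ldhb, Tigar and Pfkm, whose intervals are among the widest.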
